A study of Mus musculus with 2 samples.

Results

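The subject is a set of 10 imprinted mouse genes, namely Peg3, Usp29, Snrpn, Snurf, Ndn, Magel2, Grb10, Plagl1, Impact and Nnat, chosen by name out of 55536 annotated genes. Total RNA depleted of ribosomal RNA was sequenced from the adrenal gland of adult male mice labelled 5xFAD X Cast, aged 8-10 months and supplied by The Jackson Laboratory. 5xFAD is a transgenic model of amyloid deposition whose transgenes are driven in neurons by the Thy1 promoter, and the CAST strain derives from wild mice; both libraries have this label and there was no group without it. The group had 2 libraries, biological replicates 1 and 2, each made from 300 ng of RNA with ERCC spike-ins, with separate biosamples under 1 donor entry, so the spread between them may or may not be one between animals. Annotated genes held 29204658 counts in replicate 1 and 26322473 in replicate 2.

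An imprinted gene is expressed mainly from the copy inherited from one parent, following DNA methylation laid down in the egg or the sperm at a control region. Of the 10 genes, Grb10 is known in the mouse as a maternally expressed gene in most tissues, and the others as paternally expressed genes. Many imprinted genes are abundant in the fetus, act on growth, metabolism or behaviour, and stay on in endocrine tissue and brain. Which parent of this cross was CAST is not given, and the tables do not separate reads by allele, so every value below is the sum over both copies.

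Both the cortex and the medulla of the gland were present in each library. All 6 cortex markers (Star, Cyp11a1, Cyp11b1, Cyp11b2, Nr5a1 and Mc2r) and all 5 markers of the chromaffin cells of the medulla (Th, Dbh, Pnmt, Chga and Chgb) reached at least 1 TPM, a level per transcript length scaled to the same total in every library, in both libraries, which is called detected below. The 4 skeletal muscle markers did not. All 5 neuronal, 4 fibroblast, 4 endothelial, 4 macrophage and 6 white adipocyte markers were detected as well. The RNA thus came from several cell types, but which cells held the neuronal markers was not tested. In bulk RNA, fewer cells of a type and less RNA per cell cannot be told apart. The summed TPM of the adipocyte markers was 701 in replicate 1 and 419 in replicate 2, and that of the macrophage markers 198 and 123.

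The sequences that bear on the results are the start regions and the transcript sequence that these genes share with a neighbour. Peg3, a zinc-finger protein gene, and Usp29, a ubiquitin-specific protease gene, are read in opposite directions from starts 164 bases apart. The RefSeq promoter window of Peg3 (250 bases before to 50 after its start, GRCm38.p6, chr7:6730370-6730669, minus strand) is printed with the 263 bases it shares with the Usp29 window in capitals (chr7:6730370-6730632).
Peg3: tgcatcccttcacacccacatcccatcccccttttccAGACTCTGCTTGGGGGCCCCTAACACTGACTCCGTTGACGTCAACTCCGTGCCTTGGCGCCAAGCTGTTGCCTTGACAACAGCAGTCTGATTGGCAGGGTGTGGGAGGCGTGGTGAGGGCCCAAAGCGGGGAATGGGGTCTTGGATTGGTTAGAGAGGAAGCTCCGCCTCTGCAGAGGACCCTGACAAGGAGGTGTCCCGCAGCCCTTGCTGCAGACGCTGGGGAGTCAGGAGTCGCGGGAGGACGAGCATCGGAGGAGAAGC

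Snurf and Snrpn also share sequence, and in the same direction. Snrpn encodes SmN, a core protein of the spliceosome closely related to SmB, and Snurf encodes a small arginine-rich protein from the upstream reading frame of the same messenger. The 216-base Snurf-201 model of GENCODE (GRCm38, joined exons within chr7:59995449-60005049, minus strand) begins with ATG, holds 72 codons with its stop, and lies whole within Snrpn-201, at bases 63 to 278. It is printed with the 14 bases absent from the alternative model Snrpn-202 in capitals.
Snurf-201: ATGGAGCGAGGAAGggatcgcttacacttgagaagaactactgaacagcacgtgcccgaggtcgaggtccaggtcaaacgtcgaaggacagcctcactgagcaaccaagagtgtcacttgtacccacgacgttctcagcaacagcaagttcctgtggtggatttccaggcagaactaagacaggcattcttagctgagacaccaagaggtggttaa
A fragment that lies wholly within the other 202 bases matches Snurf-201, Snrpn-201 and Snrpn-202 alike, and one that includes the capitals still matches both Snurf-201 and Snrpn-201.

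The 4 RefSeq start windows of Snrpn, the most distal of them 444978 bases upstream of the start shared with Snurf, all held the 8-base motif CGCATGCG, the palindrome at the centre of the binding element of the factor NRF1. The motif was chosen after the windows had been read. It reads the same on both strands, no other motif was searched, and it occurred in 615 of 32851 RefSeq windows of 300 bases (1.87%) and in the windows of 559 of 27025 genes (2.07%). Windows were found for 9 of the 10 genes, and 4 of them held it (Snrpn, Snurf, Ndn and Nnat). The Snurf window is the same as 1 of the 4 of Snrpn. Because the motif was picked from these windows, its share among the genes cannot be weighed against the 2.07%. The stretches around it are shown to compare their flanks, with the motif in capitals, in order at chr7:60450217-60450256, chr7:60140280-60140319, chr7:60048026-60048065 and chr7:60005150-60005179 (minus strand), chr7:62348238-62348277 (plus strand) and chr2:157560037-157560076 (plus strand), all GRCm38.p6.
Snrpn, most distal start: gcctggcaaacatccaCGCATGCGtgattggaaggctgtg
Snrpn, start of Snrpn-202: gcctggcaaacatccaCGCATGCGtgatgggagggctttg
Snrpn, start between these and Snurf: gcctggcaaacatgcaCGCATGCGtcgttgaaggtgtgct
Snrpn and Snurf, shared start: cagccattgcctgggaCGCATGCGtaggga
Ndn: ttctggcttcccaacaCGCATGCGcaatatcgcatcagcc
Nnat: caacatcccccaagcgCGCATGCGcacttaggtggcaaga
The stretches at the most distal start and at the start of Snrpn-202 differ at 3 of 40 bases, none of them among the 16 before the motif, while the start nearer to Snurf differs from them at 9 and 10 bases, with 1 of those before the motif. In Ndn and Nnat the motif begins 23 and 25 bases before the RefSeq start, and in the shared Snrpn and Snurf window it lies after the start. A match describes these letters and shows no binding.

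The windows also differed in their content of CpG, the dinucleotide that carries methylation. The window at the main Grb10 start had 45 CpG, more than 98.1% of all windows, and that of Plagl1 had 26, more than 83.1%. Peg3 and Usp29 had 13 and 17, and Nnat had 17. The 3 upstream Snrpn windows had 2, 3 and 4 CpG, against a median of 7 over all windows. The window shared by Snrpn and Snurf had 7, the other Grb10 window 9, that of Magel2 10 and that of Ndn 11.

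Levels of the 10 genes covered a wide range. By the gene tables, 8 of the 10 were detected, against 25.5% of all annotated genes and 56.2% of protein-coding genes. The median over all 10, including those not detected, was 20.3 TPM. The median was 12.4 TPM over the detected protein-coding genes and 2.58 TPM over all protein-coding genes. Nnat, Snurf and Impact led with means near 50 TPM, Ndn, Grb10, Snrpn and Peg3 lay between 13 and 30 TPM, Plagl1 was lower, and Usp29 and Magel2 were under 1 TPM. In this order the libraries of neighbouring genes overlapped for Nnat and Snurf, for Snurf and Impact, and for Usp29 and Magel2, so these pairs did not differ beyond their spread. Each of the other 6 neighbouring pairs was separated in both libraries. The smallest gap of them was between Snrpn and Peg3. The lower Snrpn library had 15.7 TPM and the higher Peg3 library 14.3 TPM. This order is that of the gene tables. By the second quantifier Snurf was at 0, Impact led, and 7 of the 10 were detected. With the RefSeq length described below, the mean of Ndn would be 56.7 TPM.

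**Figure D1:**
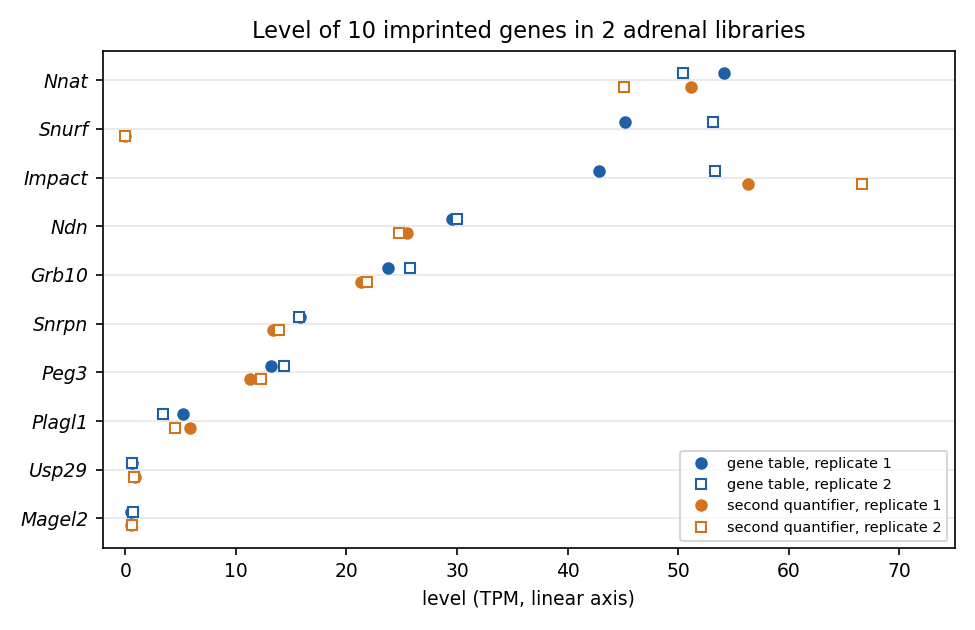
Level of each of the 10 genes in replicates 1 (circles) and 2 (squares) on a linear TPM axis, from the gene table (blue) and the second quantifier (orange). Snurf sits at 45.2 and 53.1 TPM in the gene table and at 0 in the second quantifier, and Impact moves from 42.9 and 53.3 TPM to 56.3 and 66.6 TPM, the highest of the 10.

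Peg3 encodes a large zinc-finger protein that binds DNA, and in the mouse loss of its paternal copy reduces growth. It had 13.2 TPM in replicate 1 and 14.3 TPM in replicate 2 (13.8 ± 0.813, SD, n = 2), from 2672 and 2757 counts, and the second quantifier gave 11.3 and 12.3 TPM. Its gene spans chr7:6703892-6730431 on the minus strand. The coding transcript Peg3-201 held 70.4% and 78.0% of the TPM of the gene. The intron-retaining Peg3-204 followed with 13.7% and 15.7%, and the nonsense-mediated decay transcript Peg3-203 with 11.1% in replicate 1 and 1.29% in replicate 2. Peg3-202, a decay transcript from a downstream start, held 4.84% and 5.03%. Transcripts starting within the shared promoter region, at chr7:6730419-6730431, held 95.1% and 95.0%.

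Usp29, read from the other side of that region, was far lower. It had 0.63 TPM in replicate 1 and 0.61 TPM in replicate 2, from 64 and 61 counts, so that Peg3 was 20.9 and 23.5 times as high per length (22.2 ± 1.82, SD, n = 2). The second quantifier put Usp29 at 0.922 and 0.814 TPM and the ratio at 12.2 and 15.1. The counts are too few for its transcripts: Usp29-202 led with 40.5% in replicate 1 but held 11.4% in replicate 2, where the processed transcript Usp29-205 led with 27.9%. The coding Usp29-204 held 23.2% and 18.3%, the processed Usp29-208 10.9% and 12.6%, and the intron-retaining Usp29-206 7.99% and 13.9%. Usp29-203 and Usp29-207 were at 0 in replicate 1 and held 8.25% and 7.68% in replicate 2. Usp29 exons overlap 2582 bases of Zim3, a zinc-finger gene on the opposite strand that had 0 counts in both libraries. Its paralog Usp37, a deubiquitinase gene of the cell cycle, had 7.45 and 6.66 TPM, and Usp26, known for its expression in the testis, had 1 count in replicate 1 and 0 in replicate 2.

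The Peg3 domain was represented mainly by Peg3. Of its 3 other matched genes only the zinc-finger gene Zim1 was detected, at 1.14 and 1.26 TPM, and Peg3 was 11.6 and 11.4 times as high. With the second quantifier that ratio was 5.73 and 5.87. Zim3 and Zfp264 had 0 counts in the gene tables. Of known partners, Trim28, the corepressor of zinc-finger proteins that keeps methylation at imprinted control regions, had 97.5 and 99.6 TPM. Siah1a, a ubiquitin ligase that binds the Peg3 protein, had 7.01 and 6.74 TPM.

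Plagl1, also called Zac1, encodes a zinc-finger transcription factor that restrains cell division. It had 5.19 TPM in replicate 1 and 3.39 TPM in replicate 2 (4.29 ± 1.27, SD, n = 2), from 387 and 274 counts. Replicate 1 was the higher library by each measure, and the second quantifier gave 5.86 and 4.51 TPM. Plagl1 was the 1 gene of the 10 whose TPM lay outside the interval deposited for it, which ran from 6.24 to 9.38 TPM in replicate 1 and from 4.73 to 7.65 TPM in replicate 2. Its gene spans chr10:13060504-13131694 on the plus strand, with 25 annotated transcripts, and small numbers of counts on the short ones weigh on its TPM. Plagl1-202, with 5260 bases, held 328 and 255 counts, 88.9% of the counts on average, but 42.8% and 57.0% of the TPM. Plagl1-214, with 475 bases, held 19.8% of the TPM in replicate 1 from 11.1 counts and 4.85% in replicate 2 from 1.58 counts. Plagl1-223 was at 0 in replicate 1 and held 18.6% in replicate 2 from 3.81 counts, and Plagl1-215 and Plagl1-218 held 7.33% and 7.32% in replicate 1 and 0 in replicate 2. Plagl1-222 held 7.14% and 8.93%, and the intron-retaining Plagl1-210 held 4.01% and 9.55%. Plagl1-204 and Plagl1-201 passed 5% only in replicate 1 of the second quantifier, with 13.4% and 6.26%. The 22 transcripts starting within chr10:13090691-13091013, at the window with 26 CpG, held 92.9% and 89.9% of the TPM, and the upstream Plagl1-225 was listed at 0. Of its paralogs, the growth-promoting factor gene Plag1 had 5.06 and 4.63 TPM and Plagl2 had 4.33 and 4.71 TPM, and the neighbouring Phactr2, a regulator of protein phosphatase 1 and actin, had 11.5 and 10.7 TPM.

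**Figure D2:**
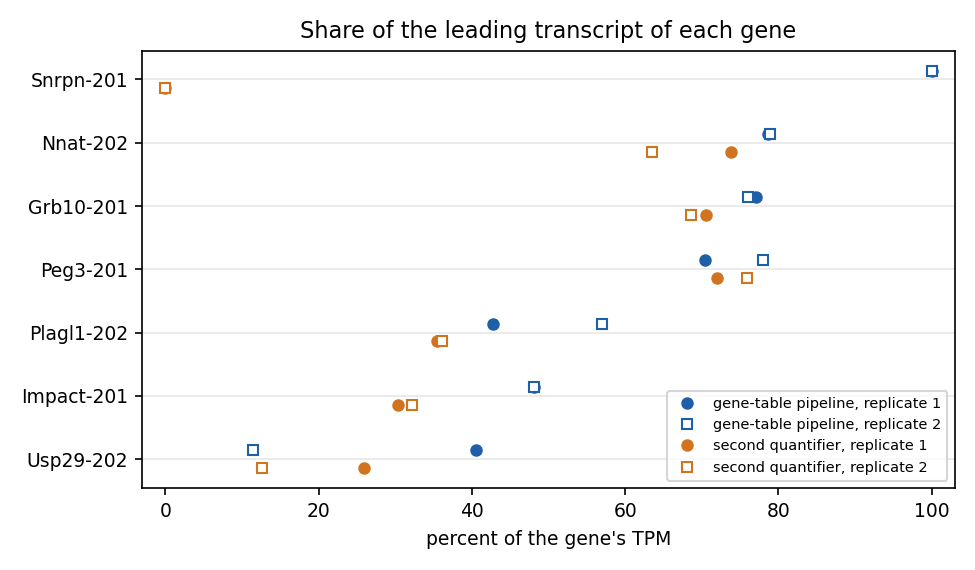
Percent of the TPM of a gene held by its leading transcript in each library, by the gene-table pipeline (blue) and the second quantifier (orange), for the 7 genes with several annotated transcripts. Peg3-201, Grb10-201 and Nnat-202 hold most of their gene by both, Snrpn-201 moves from 100 to 0 percent, and Usp29-202 differs between the libraries.

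Snurf was the gene of the set whose level changed most between quantifiers, and the transcript assigned to Snrpn changed as well. The gene tables gave Snurf 45.2 and 53.1 TPM and Snrpn 15.8 and 15.7 TPM, and the second quantifier gave Snurf 0 in both libraries and Snrpn 13.4 and 13.9 TPM. In the gene tables Snurf had only 150 and 158 counts against 829 and 736 for Snrpn. Its share was therefore 15.3% and 17.7% of the summed counts but 74.1% and 77.2% of the summed TPM, because its effective length of 116 bases divides the counts where that of Snrpn is 1832 bases. The summed counts of both genes were 979 and 894, close to the 940 and 872 of the second quantifier. Had all of them belonged to Snrpn-201, Snrpn would stand at 18.7 and 19.1 TPM.

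The division between the Snrpn models was just as complete. The gene-table pipeline put all of Snrpn on Snrpn-201, which starts at chr7:60005111 beside Snurf, and the second quantifier put all of it on Snrpn-202, which starts 135108 bases upstream at chr7:60140219. The models have 9 exons and 1849 bases in common, and 83 bases of Snrpn-201 and 227 of Snrpn-202 tell them apart. The tables give no counts per base, so which start was used in the gland was not resolved here. The deposited posterior SD of the count was 7.11 and 6.74 for Snrpn and 6.69 and 6.25 for Snurf, and 0 for the other 8 genes. A further entry on the same strand, Gm38393, whose exons cover every base of Snurf-201, had 255 and 177 counts and was chosen after its values were seen. Of these, 237 and 159 counts were on Gm38393-203, a single-exon model that lies outside Snurf-201, and Gm38393-201, which starts beside Snurf, had 18.1 and 16.7 counts.

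**Figure D3:**
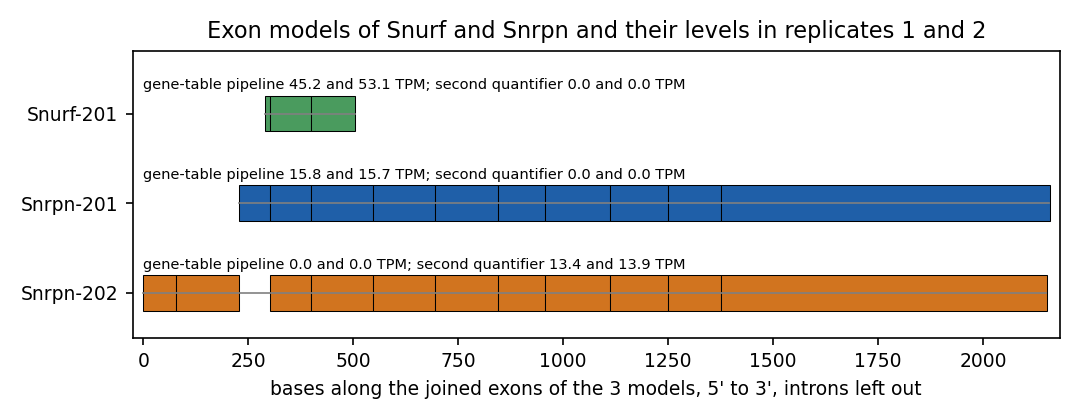
Exons of Snurf-201, Snrpn-201 and Snrpn-202 along the joined exon sequence in bases, introns left out, with the levels of each model in replicates 1 and 2. The Snurf model lies within the first exons of Snrpn-201 and shares all but its first 14 bases with Snrpn-202.

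Snrpb, the paralog that encodes the SmB proteins found in all tissues, was 4.05 and 4.13 times as high as Snrpn per length, with 64.1 and 64.9 TPM. That ratio was 4.60 and 4.48 with the second quantifier. In the same domain, Ube3a, a ubiquitin ligase gene imprinted in neurons, had 51.6 and 51.2 TPM, and Atp10a, a phospholipid transporter gene, had 33.0 and 31.7 TPM. Snhg14, the long transcript downstream of Snrpn that runs antisense to Ube3a in neurons, had 4.21 and 4.00 TPM by the gene tables and 7.98 and 6.64 TPM by the second quantifier. Snord64, a small nucleolar RNA gene between Snhg14 and Snrpn at chr7:59978808-59978874, had 0 counts in both libraries. The effective length of the 216-base Snurf model was 116 bases, and Snord64 is shorter than the bases lost there. Its 0 counts therefore cannot tell an absent RNA from a model too short to be counted. The ring-finger gene Mkrn3 had 0.86 and 0.67 TPM and Peg12, related to the GSK-binding protein FRAT, had 0.37 and 0.46 TPM, so both were under the limit. Of the 6 matched genes of this domain outside the set, 3 were detected.

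Ndn and Magel2 both encode MAGE-family proteins. Necdin, the product of Ndn, restrains cell division in neurons that have stopped dividing, and MAGEL2 works with the ubiquitin ligase TRIM27 on endosomes to return receptors to the cell surface. Ndn had 29.6 TPM in replicate 1 and 29.99 TPM in replicate 2 (29.8 ± 0.311, SD, n = 2), from 3042 and 2757 counts. Magel2 had 0.56 and 0.67 TPM, from 73 and 78 counts. Ndn was thus 52.8 and 44.8 times as high as its neighbour (48.8 ± 5.66, SD, n = 2), and 47.4 and 42.1 times by the second quantifier. Both are single-exon genes on the plus strand, Ndn at chr7:62346569-62350262 and Magel2 at chr7:62377010-62381640.

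The Ndn level rests on its annotated length. GENCODE gives it a 3694-base exon that begins 1708 bases before the RefSeq start printed above, which would leave 1986 bases. If all counts lay in those, Ndn would stand at 56.3 and 57.2 TPM, above the other 9 genes in the gene table of each library. How its reads spread over the exon was not analysed here. The RefSeq start of Magel2 differs from that of GENCODE by 31 bases. All 5 of the related MAGE genes that were listed were detected, and other genes of the family were not examined. Maged1, whose protein acts in neurotrophin receptor signalling, was the highest with 92.4 and 90.9 TPM, 3.13 and 3.03 times Ndn. Maged2 had 30.6 and 31.4 TPM, Mageh1 8.64 and 9.88, Magee1 6.49 and 6.92, and Nsmce3, a subunit of the SMC5/6 complex, 3.89 and 3.36 TPM. The 3 listed Magel2 partner genes were all detected despite the low level of Magel2 itself. The deubiquitinase gene Usp7 had 48.4 and 52.7 TPM, the retromer subunit gene Vps35 had 31.6 and 31.8 TPM, and Trim27 had 15.2 and 17.9 TPM.

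Grb10 encodes an adaptor that binds the activated insulin and IGF1 receptors and dampens their signal. It had 23.8 TPM in replicate 1 and 25.8 TPM in replicate 2 (24.8 ± 1.43, SD, n = 2), from 2828 and 2665 counts, and the second quantifier gave 21.4 and 21.9 TPM. The receptor genes Insr, at 45.0 and 51.9 TPM, and Igf1r, at 31.8 and 33.8 TPM, were both higher than Grb10 in each library. Its paralog Grb14, an adaptor of the same receptors, had 22.2 TPM in replicate 1 and 16.2 TPM in replicate 2. The ratio of Grb10 to Grb14 was 1.07 and 1.59 and so differed between the libraries. The remaining paralog, Grb7, had 1 count in replicate 1 and 0 in replicate 2.

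In the mouse, Grb10 is read from the maternal copy at an upstream promoter in most tissues and from the paternal copy at downstream promoters in neurons. The gene spans chr11:11930508-12038683 on the minus strand. Grb10-201, which starts at chr11:12037401 within 19 bases of the RefSeq start in the window with 45 CpG, held 77.1% and 76.0% of the TPM, and 70.5% and 68.5% by the second quantifier. Transcripts starting downstream at chr11:12026324-12026732, Grb10-207 and Grb10-209, held 11.5% and 12.2% together. Of these, the 430-base Grb10-207 rested on 18.0 and 17.8 counts and was at 0 in the second quantifier. Grb10-203, which starts at the further RefSeq window, at chr11:12027971, held 1.83% in replicate 1 and 0 in replicate 2, and 3.47% and 5.02% by the second quantifier. The processed transcript Grb10-205 held 5.36% and 5.80%, and Grb10-204 held 5.09% on average. Grb10-202 was at 0 in the gene-table pipeline and held 7.67% and 5.78% by the second quantifier. The labels do not tie these starts to a parental copy. Of the flanking genes, Ddc, which encodes the decarboxylase of dopamine synthesis, had 35.9 and 38.6 TPM, 1.51 and 1.497 times Grb10, and the actin regulator gene Cobl had 1.22 and 1.39 TPM.

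Impact encodes a protein that competes for GCN1 and so inhibits the GCN2 kinase, which slows translation when amino acids are short. It had 42.9 TPM in replicate 1 and 53.3 TPM in replicate 2 (48.1 ± 7.38, SD, n = 2), from 2494 and 2770 counts. The second quantifier gave 56.3 and 66.6 TPM and placed it first of the 10. Eif2ak4, the GCN2 gene, had 10.6 and 9.31 TPM, so that Impact was 4.06 and 5.73 times as high. With the second quantifier that ratio was 6.06 and 7.52. Of the neighbours on chromosome 18, Osbpl1a, related to the oxysterol-binding proteins, had 15.3 and 14.7 TPM, and the histamine receptor gene Hrh4 had 0 counts and 1 count.

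The Impact TPM was spread over short transcripts. Impact-201, with 3763 bases, held 86.8% of the counts on average but 48.1% of the TPM in each library, and 30.4% and 32.2% by the second quantifier. The short coding models changed places between the libraries in the gene-table pipeline only. There Impact-208 had 7.21 TPM in replicate 1 and 0 in replicate 2. Impact-202 had 0 in replicate 1 and 6.93 TPM in replicate 2. The second quantifier put Impact-208 at 0 in both libraries and Impact-202 at 5.40 and 12.4 TPM. Impact-206 had 2.06 and 7.84 TPM in the gene-table pipeline, and 14.5 and 12.2 TPM by the second quantifier. The intron-retaining transcripts Impact-207 and Impact-205 together held 25.3% and 20.03%. The decay transcript Impact-203 held 0.38% and 0.34%, and 4.13% and 6.14% by the second quantifier.

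Nnat encodes neuronatin, a small membrane protein of the endoplasmic reticulum that resembles small regulators of the calcium pump SERCA. It had 54.1 TPM in replicate 1 and 50.4 TPM in replicate 2 (52.3 ± 2.65, SD, n = 2), from 1661 and 1380 counts, and the second quantifier gave 51.2 and 45.1 TPM. The gene spans chr2:157560078-157562522 on the plus strand, within an intron of the host gene Blcap on the minus strand. Blcap, which encodes a small protein first found in bladder cancer, had 31.4 and 31.3 TPM, so that Nnat was 1.72 and 1.61 times as high. Nnat-202 held 78.6% and 78.9% of the TPM, and 73.8% and 63.5% by the second quantifier. Nnat-205, which starts at the RefSeq start itself, held 8.58% and 11.1%, and the intron-retaining Nnat-203 held 6.13% and 3.04%. Atp2a2, the gene of the SERCA2 pump, had 62.1 and 71.9 TPM.

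**Figure D4:**
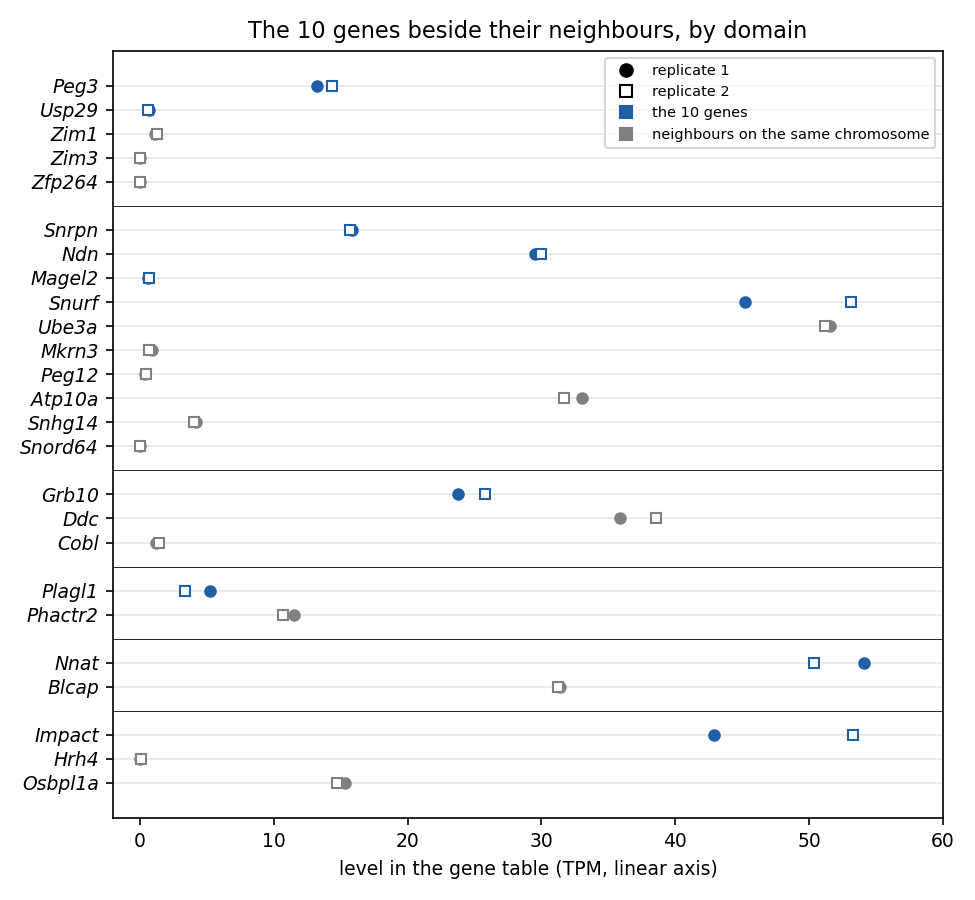
Level of the 10 genes (blue) and of the matched neighbours in the same domains (grey) in replicates 1 (circles) and 2 (squares), on a linear TPM axis. Within the Peg3 domain only Peg3 rises above 2 TPM, and in the Snrpn domain Ube3a and Atp10a stand beside Snurf, Ndn and Snrpn while Magel2, Mkrn3 and Peg12 stay under 1 TPM.

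The libraries were then compared gene by gene as the log2 ratio of replicate 2 to replicate 1 in scaled counts. None of the 10 genes passed 1.5-fold. Of all genes averaging 20 counts or more, 6.71% did (1099 of 16383). Among such protein-coding genes it was 679 of 13804, and among the detected ones 292 of 12361. With shares this low, 0 of 10 does not set these genes apart. With 1 library on each side there is no test, and the standard errors cover counting only. The ratios of the 10 had a median of 0.065, against -0.006 over the 16383 genes averaging 20 counts or more. Of the 10, 7 were above 0, Ndn only barely, and of the 16383, 7978 were. Whether these shares differ was not tested. With the second quantifier Usp29, Ndn and Snrpn, whose ratios in the gene tables were within 1 counting SE of 0, had the opposite sign. Impact was the highest at 0.29 ± 0.040 (counting SE) and Plagl1 the lowest at -0.36 ± 0.114. Peg3 stood at 0.19 ± 0.039, Nnat at -0.12 ± 0.053, Grb10 at 0.06 ± 0.039, Snrpn at -0.03 ± 0.073 and Ndn at 0.00 ± 0.038. For the 3 genes with under 200 counts the errors were wide, with 0.22 ± 0.164 for Snurf, 0.24 ± 0.235 for Magel2 and 0.07 ± 0.258 for Usp29. In TPM the Plagl1 ratio was -0.61, past 1.5-fold, as its effective length went from 2602 bases in replicate 1 to 3160 in replicate 2.

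**Figure D5:**
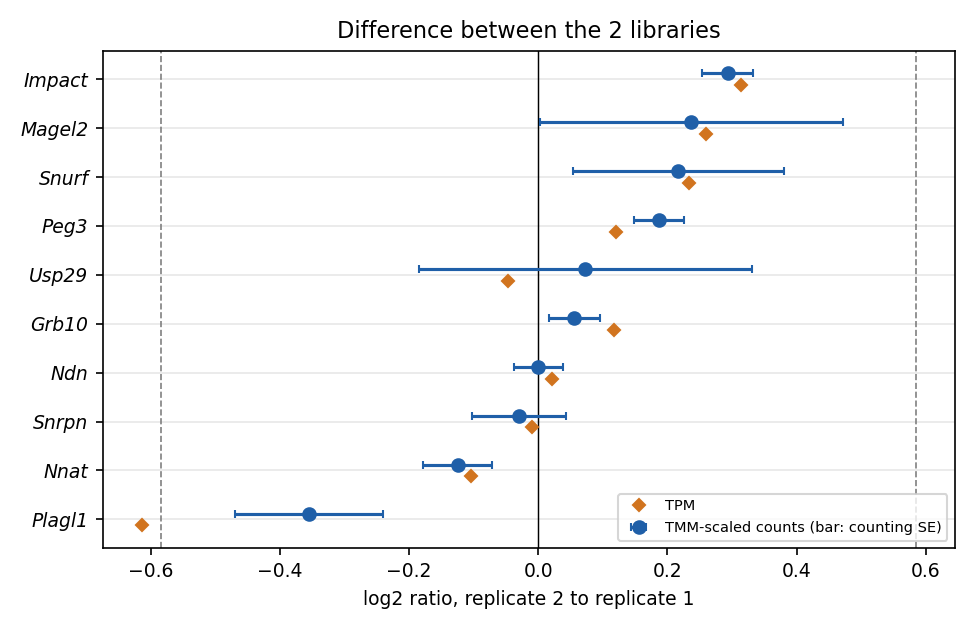
Log2 ratio of replicate 2 to replicate 1 for each gene in scaled counts (circles, bars for the counting SE) and in TPM (diamonds), with dashed lines at 1.5-fold. All 10 count ratios lie between the lines, and the TPM ratio of Plagl1, at -0.61, lies past the lower one.

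Marker genes moved between the libraries too. All 5 medulla markers were higher in replicate 2, with a median log2 ratio of 0.17 and a range from 0.02 to 0.56, and none passed 1.5-fold. Of the 5 neuronal markers 4 were higher and 1 lower in replicate 2. Their median was 0.23, the range ran from -0.07 to 0.35, and none passed 1.5-fold. All 6 white adipocyte markers were lower there, with a median of -0.86. Of these, Lep (leptin), Fabp4 (a fatty acid carrier), Cidec (a lipid droplet protein), Adipoq (adiponectin) and Car3 (a carbonic anhydrase of fat and muscle) were past 1.5-fold, with ratios of -1.48, -0.87, -0.87, -0.85 and -0.70. All 4 macrophage markers were also lower, with a median of -0.62, and the lysozyme gene Lyz2 at -0.86 and the lysosomal glycoprotein gene Cd68 at -0.71 were past 1.5-fold. Among fibroblast markers the collagen gene Col3a1 was past it at -0.74, while the median was -0.04. The part of these cell types in the ratios of the 10 genes was not tested.

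Among neighbours, paralogs and partners with a mean count of at least 20, none passed 1.5-fold between the libraries. Of 20 listed genes of the same domains 15 matched a symbol, 9 were detected, with a median ratio of -0.08 over the 11 with such a count. Of 12 paralogs all matched and 10 were detected, and of 10 partner genes 9 matched and all 9 were detected. Among paralogs and partners above that limit the ratio farthest from 0 was that of Grb14, at -0.49 ± 0.074 (counting SE).

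Set beside other imprinted genes, the 10 stood in the middle of the range. Of 32 other imprinted genes 26 were detected, and the median of the 32 was 19.2 TPM. The noncoding RNA genes Meg3 and Rian, the signalling subunit gene Gnas and Dlk1, a Notch-related membrane protein gene, had means of 1122, 464, 675 and 308 TPM, each above all 10 genes. Kcnk9, a potassium channel gene, followed at 92.5 ± 24.4 TPM (SD, n = 2) and Cdkn1c, a cell-cycle inhibitor gene, at 89.4 ± 8.87 TPM. Of the 30 with a mean count of at least 20, 2 were past 1.5-fold between the libraries, against 6.71% of all such genes. These were the growth-restraining noncoding RNA gene H19, at 18 and 26 counts, and the amino acid transporter gene Slc38a4, at 107 and 146 counts. Both were higher in replicate 2, with log2 ratios of 0.66 ± 0.442 (counting SE) for H19 and 0.589 ± 0.184 for Slc38a4. The latter lay just past the limit of 0.585.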

How the data were processed

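Libraries were made from total RNA with a directional kit, per the labels' protocols; whether strand was used in counting is not stated in them. Per the library notes deposited with the samples, reads were aligned to transcripts of mm10 with GENCODE M21. For each gene the authors deposited expected counts, FPKM and TPM, and for each transcript its expected count, TPM and percent of the gene. Also deposited were a score per gene, the posterior SD of its count, and lower and upper TPM bounds, treated as a signal, per the file headers. The deposited table called the second quantifier has TPM and estimated counts of transcripts, obtained straight from the reads and summed here per gene. The sources used here do not name the quantifiers. The authors scaled TPM over all 81881 features, and mitochondrial and small structural RNA took 59.6% and 58.9% of it in replicates 1 and 2.

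The 10 genes and all lists were chosen with earlier results of these data known. Genes were matched by identifier and name. The 26248 numeric identifiers, which name no gene, held 1.51e-05% and 2.13e-05% of counts, and spike-ins with phiX 0.469% and 0.504%; both stayed out of library sizes. Expected counts were rounded to whole numbers. Ratios used TMM-scaled totals (edgeR 4.0.16, R 4.3.3; factors 0.997 and 1.00) and a prior count of 0.5, with Poisson standard errors that cover counting error only. No p-value was computed, since 2 libraries of 1 group give no comparison between groups. On simulated counts, 92.5% of 200 genes changed by 1 on the log2 scale passed 1.5-fold in the right direction, and 3.77% of 16159 unchanged genes passed. The noise between simulated libraries was set in advance and not estimated from these libraries. Thus 92.5% is not a rate of changes found in these data, and 3.77% is not a rate of false calls in them. Python 3.11.15 was used with pandas 2.3.3, numpy 2.4.6 and matplotlib 3.10.9. Promoter windows came from RefSeq (GRCm38.p6), and the Snurf sequence from the GENCODE M21 transcripts.

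Named were the 10 genes, every detected gene of the domain, paralog and partner lists, the 6 highest other imprinted genes, list members past 1.5-fold at a mean count of at least 20, and transcripts of the 10 genes with at least 5% of their gene by either quantifier. Undetected neighbours and Gm38393 were named after their values were seen. Of 112 listed genes 106 matched a symbol, and 1 marker gene is not reported here. Alternatives were DESeq2 1.42.0 size factors, total counts, other prior counts and limits, FPKM, rescaled TPM, the second quantifier and leaving out each library.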

Additional observations from a re-analysis of the deposited data

How the results depend on the processing

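The log2 ratios of all 10 genes kept their direction and stayed within 1 counting SE of their first values under DESeq2 size factors, total counts and a prior count of 2. With the second quantifier, 9 genes had counts and stayed within 2 counting SEs, and Snrpn moved by more than 1. Usp29 at -0.04, Snrpn at 0.08 and Ndn at -0.004 changed sign. The alternatives with TPM ratios, summed counts, added counts and RefSeq length were chosen after seeing the data. With TPM in place of counts the Plagl1 ratio was -0.61, so 1 gene passed 1.5-fold; Usp29 changed sign within its error. With the second quantifier mean levels were 11.8 TPM for Peg3, 0.868 for Usp29, 13.7 for Snrpn, 0 for Snurf, 25.1 for Ndn, 21.6 for Grb10, 61.4 for Impact and 48.1 for Nnat. In FPKM, Usp29 stood at 0.600, Snrpn at 15.3 and Ndn at 28.9. In TPM rescaled without mitochondrial and small structural RNA, means were 34.3 for Peg3, 1.55 for Usp29, 39.3 for Snrpn, 123 for Snurf, 74.3 for Ndn, 1.53 for Magel2, 61.8 for Grb10, 10.7 for Plagl1, 120 for Impact and 131 for Nnat, which follows from the smaller total. With Snurf counts added Snrpn was at 18.9 TPM, and with the RefSeq length Ndn at 56.7 TPM. Leading-transcript shares by the second quantifier were 69.5% for Grb10-201, 31.3% for Impact-201, 68.6% for Nnat-202, 35.8% for Plagl1-202 and 1.95e-09% for Snrpn-201; by expected count they were 92.7%, 86.8%, 81.9% and 88.9% for the first 4, and 87.4% for Peg3-201. Snurf held 0% of the summed Snurf and Snrpn level by the second quantifier and 16.5% of summed counts. Except where a length or a count shows it, the cause was not tested. The number detected was 10 at a limit of 0.5 TPM, 7 at 5 TPM and 7 by the second quantifier. Leaving out either library left 8 detected; with 2 libraries the mean then moves by a fixed share of the SD, which says nothing of stability, and Usp29-202 held 11.4% without replicate 1 and 40.5% without replicate 2. No paired analysis was possible because there was 1 group and no test. Counts of 61 to 158 for Usp29, Magel2 and Snurf limit their ratios and transcripts.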
